A study of Macaca fascicularis with 24 samples.

Results

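ID1 to ID4 and the genes that carry bone morphogenetic protein (BMP) signals to them were measured in thoracic aortas of cynomolgus macaques that differed in age and sex. The 10 genes are ID1, ID2, ID3 and ID4, the inhibitory SMAD6, the signal-carrying SMAD1 and SMAD5, and the receptors BMPR2, BMPR1A and ACVRL1. They were found by gene symbol in the platform annotation, which gave 18 probe sets of 9 genes among the 22215 on the array that are not controls. No probe set carried the symbol BMPR1A, so that receptor has no value here, and 1 further probe set that carries ID2 beside another symbol was left out. The set was built around ID1, which had been chosen from its difference between old and young males in these same samples. The values of that comparison are therefore a description with no test, and tests concern females, the sexes and the spread between samples within groups.

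BMP ligands bind a complex of type II receptors such as BMPR2 and type I receptors such as BMPR1A and ACVRL1. The receptors phosphorylate SMAD1 and SMAD5, which enter the nucleus with SMAD4 and switch on target genes, among them ID genes and SMAD6. ID proteins lack a DNA-binding region and hold E proteins away from DNA, and SMAD6 feeds back on the receptors. In vessels the pathway is known from inherited disorders: BMPR2 mutations cause pulmonary arterial hypertension in humans, and ACVRL1 mutations cause hereditary haemorrhagic telangiectasia.

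The groups were old males (average age 20 years), young males (6.6 years), old females (21.2 years) and young females (7.2 years), with 6 single-colour arrays each and no treatment or genotype named in the labels. The probes are human, so a mismatch with monkey RNA can lower a probe set on all arrays alike. Of the 276 pairs of arrays, 3 pairs within a group were closer than the rest. The SD of their log2 difference was 0.23, 0.27 and 0.38 (the last for young females 3 and 4), against at least 0.43 elsewhere. The correlation of their deviations from each probe set's mean was at least 0.76, against at most 0.51. Each of these pairs was averaged into 1 sample. This left 6 old males, 5 young males, 5 old females and 5 young females. The labels give only an average age per group and do not tie each array to an animal, so p-values measure the spread between these samples, which may be technical.

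On 7 arrays, making up 6 samples (old males 2 and 4, young male 1, old females 2 and 6, young female 3), the median correlation with the other arrays was 0.81 to 0.83, against 0.88 to 0.93 elsewhere. On these divergent arrays the actin control's 3′ probe set also exceeded its 5′ one by more, at 0.79 to 1.73 on the log2 scale against -0.25 to 1.15. Young male 1, one of them, went against its label for XIST, with 10.31, against at most 7.15 in other young males and 11.18 or more in females. The male-specific RPS4Y1 was 11.97 or more in all young males, young male 1 included. Smooth muscle markers were read in every sample: 12 of the 15 listed genes had a probe set, all 12 passed the filter, and their mean level was 11.79 to 14.11. Levels below are quantile-normalised log2(intensity + 16), which understates the change of dim genes. A probe set was tested if its mean over all samples was at least 7.59, the median over all probe sets, and 13 of the 18 probe sets, from 8 genes, were tested. In whole tissue, fewer cells of a type and less RNA per cell cannot be told apart.

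ID1, a direct BMP target that restrains differentiation, has 1 probe set. Its level in the 6 old males had a lowest value of 9.83, a median of 10.09 and a highest of 10.71. The 5 young males read 9.19, 9.52, 8.87, 9.95 and 8.90. All 6 old males lay above the young male median and 4 lay above every young male, while the highest young male lay above the lowest old males. The mean was 10.19 ± 0.37 in old males (SD, n = 6) and 9.29 ± 0.45 in young males (SD, n = 5), a log2 change of 0.91 ± 0.24 (SE) or 1.88-fold.

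The ID1 difference in males was also computed without the libraries that stand apart, as a description. It was 0.88 without the 6 divergent samples, and 0.88 without young male 1. Leaving out each sample in turn gave 0.80 (without young male 3) to 1.07 (without young male 5). Markers of other cell types differed in the same comparison. The list-mean ranges below cover every listed gene with a probe set, dim ones included (16 endothelial, 13 adipocyte and 9 fibroblast genes). Of the 11 tested endothelial markers (18 listed), 10 were higher on average in old males than in young males, with a list mean of 7.40 to 9.63 in old males and 7.81 to 8.05 in young males. The 10 tested adipocyte markers (14 listed) were all higher on average in old males. The adipocyte list mean was 7.06 to 10.90 in old males and 6.68 to 10.37 in young males. Of 8 tested fibroblast markers, 6 had a lower mean in old males (median change -0.47, beside 0.28 for the endothelial and 1.72 for the adipocyte list), with a list mean of 10.75 to 12.05 in old males and 11.65 to 12.48 in young males. With each sample's endothelial list mean in the model the ID1 change was 0.90, and with the adipocyte list mean 0.92. No fit held the fibroblast list mean. The part of array quality or of these markers in the ID1 change was not tested.

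In females, whose values played no part in choosing ID1, the old samples read 9.58, 10.11, 8.90, 9.68 and 9.21. The young females read 9.37, 8.95, 9.66, 9.04 and 9.37. The groups overlapped, with 2 old females above every young female and 1 below all of them. ID1 averaged 9.50 ± 0.46 in old females (SD, n = 5) and 9.28 ± 0.29 in young females (SD, n = 5). The log2 change of 0.22 ± 0.25 (SE) did not pass (limma adjusted p = 0.9996), with a 95% interval of -0.31 to 0.74. It was 0.064 without old female 2, on a divergent array, and 0.37 without old female 3. The age change in males minus that in females was 0.69 ± 0.35 (SE), given with no test because the male values chose the gene. In order of level, old males (10.19) came first, then old females (9.50), young males (9.29) and young females (9.28), and the last 3 lay within each other's spread.

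**Figure D1:**
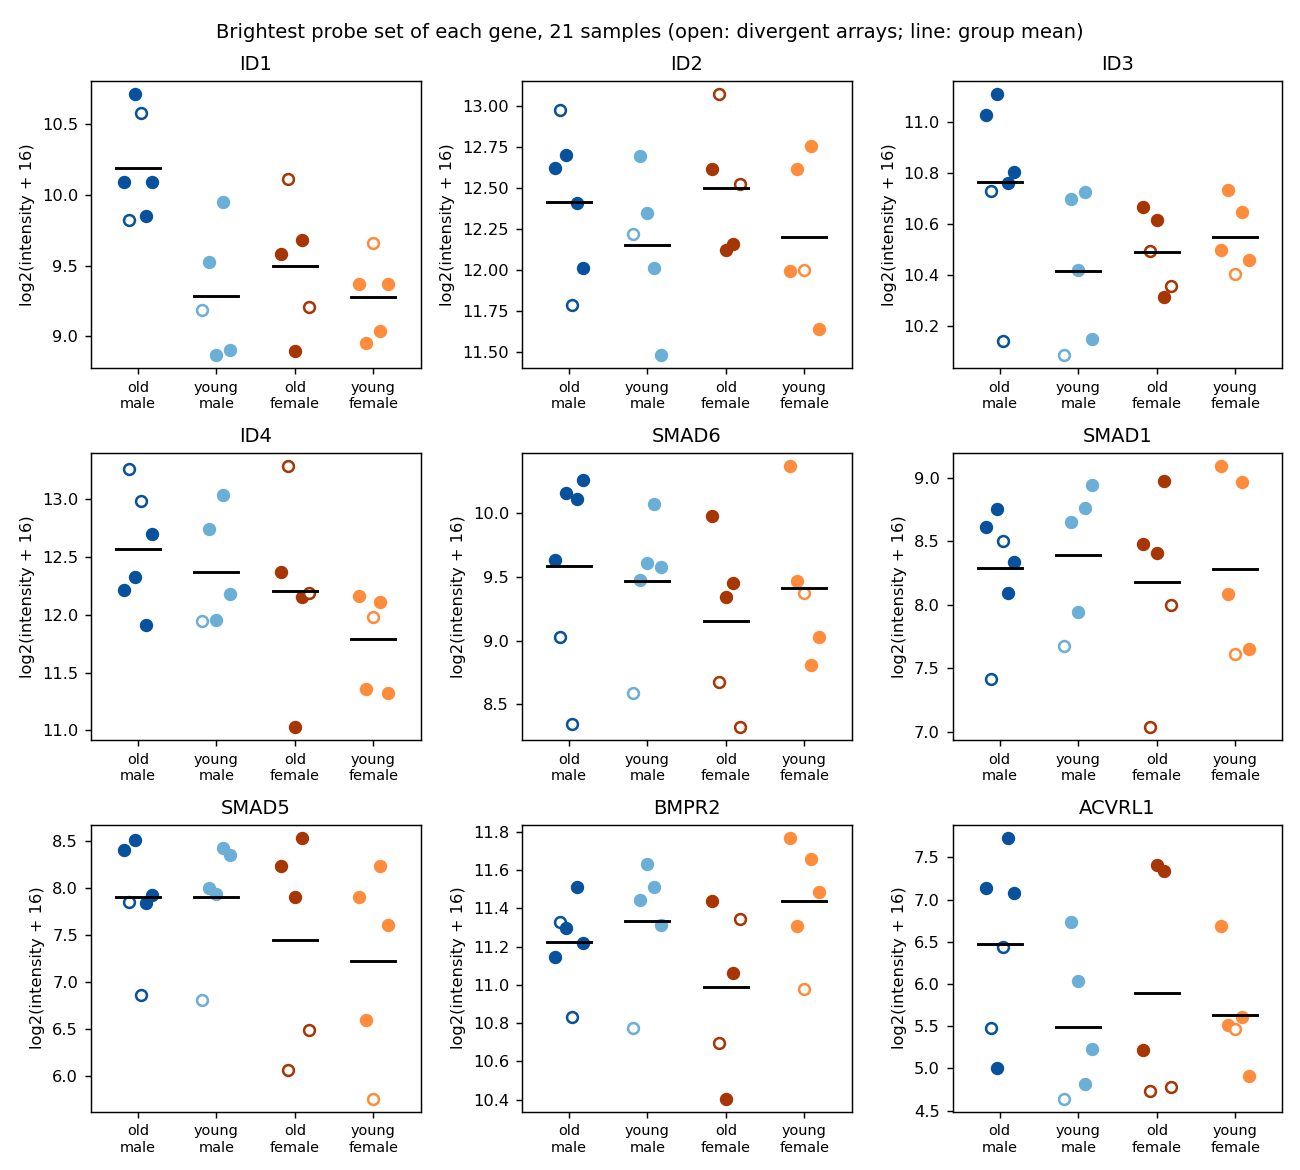
Level of the brightest probe set of each of the 9 measured genes, as quantile-normalised log2(intensity + 16) on the vertical axis (scales differ between panels), in old males, young males, old females and young females. Points are samples, open where their arrays diverge, and lines are group means; ID1 has its highest group mean, 10.19, in old males, and the open points of SMAD5 lie between 5.76 and 7.85.

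ID3, which acts redundantly with ID1 in mouse blood vessel growth and has 1 probe set, ran from 10.14 through a median of 10.79 to 11.11 in old males. The young males read 10.08, 10.70, 10.42, 10.72 and 10.15. Of the old males, 5 lay above every young male, and old male 4, on a divergent array, lay below 4 of the 5 young males. The log2 change in males was 0.35 ± 0.17 (SE), and 0.43 without the divergent samples. Old females read 10.67, 10.50, 10.62, 10.31 and 10.36, against 10.50, 10.74, 10.40, 10.65 and 10.46 in young females. These values overlapped, and the change was -0.06 ± 0.18 (SE, limma adjusted p = 0.9996) with a 95% interval of -0.43 to 0.32.

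ID2, known from lymphoid development in mice, had overlapping groups in both sexes. Its brighter probe set ran from 11.79 through 12.51 to 12.97 in old males. Young males read 12.22, 12.69, 12.35, 12.01 and 11.48, a log2 change of 0.27 ± 0.25 (SE). It was 0.10 without young male 6, the lowest young male, and 0.40 without young male 2. Old females read 12.61, 13.07, 12.12, 12.16 and 12.53, against 12.00, 12.61, 12.00, 12.76 and 11.64 in young females. All 5 old females lay above the young female median, but only old female 2, on a divergent array, lay above every young female. The change of 0.30 ± 0.26 (limma adjusted p = 0.9996) was 0.05 without the divergent samples. The second ID2 probe set had changes of 0.38 ± 0.30 in males and 0.01 ± 0.32 in females, and its group-centred r with the first was 0.42 over 21 samples.

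ID4, known from neural and mammary development in mice, spread over 2.25 log2 units across the 21 samples on its brightest probe set. It ran from 11.91 through 12.51 to 13.26 in old males, and the young males read 11.95, 12.74, 11.96, 13.03 and 12.18. Old females read 12.37, 13.29, 11.03, 12.15 and 12.19, against 12.16, 11.36, 11.98, 12.11 and 11.33 in young females. Old female 2 was the highest and old female 3 the lowest of all 21 samples. The log2 change in males was 0.19 ± 0.32 (SE) and turned to -0.19 without the divergent samples. In females it was 0.42 ± 0.33 (SE, limma adjusted p = 0.9996), 0.11 without the divergent samples, 0.15 without old female 2 and 0.71 without old female 3. The second probe set gave 0.30 ± 0.35 in males and 0.47 ± 0.36 in females, and a dim one below the filter gave 0.51 ± 0.28 and 0.50 ± 0.30. All 3 ID4 probe sets thus had positive changes in both sexes, and the 2 tested ones did not pass in females.

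**Figure D2:**
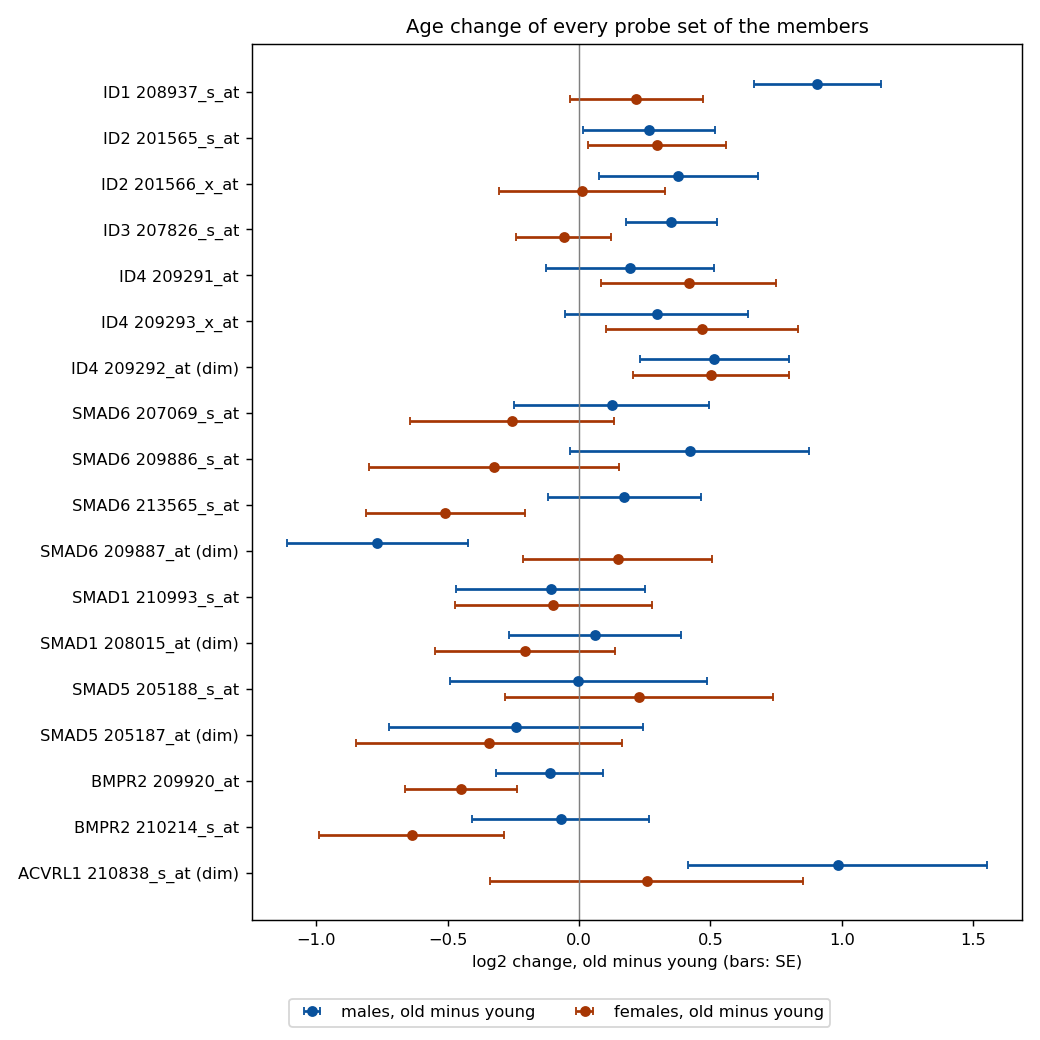
Log2 change, old minus young, of all 18 probe sets in males (blue) and females (brown), with bars for the SE from limma; "dim" marks probe sets below the filter. ID1 in males stands at 0.91, the ID4 points lie above 0 in both sexes, and both BMPR2 probe sets lie below 0 in females (-0.45 and -0.64).

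Whether ID1 moved with the other ID genes from sample to sample was asked with every value centred on its group mean, which takes out the group differences that chose ID1. ID4 came closest, with Pearson's r = 0.61 over 21 samples (permutation p = 0.0115, 0.0920 after Benjamini-Hochberg adjustment over 8 relations) and Spearman's rho = 0.54 (permutation p = 0.0231, adjusted 0.185). It did not pass the threshold of 0.05, and r was 0.43 without the 2 samples farthest from the ID1 median. Within the 15 samples on arrays that do not diverge r was 0.69 (permutation p = 0.0196, adjusted 0.157; rho = 0.68). Leaving out single samples gave r of 0.50 to 0.75, and the relation passed without old male 2 (0.75, adjusted permutation p = 0.00944) and without old male 3 (0.69, adjusted permutation p = 0.0293). In 27 of the 31 alternative fits of this relation it did not pass, with adjusted permutation p-values up to 0.362.

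ID2 had r = 0.008 with ID1 (permutation p = 0.974, adjusted 0.974; rho = 0.009) and 0.09 within the 15 samples. ID3 had r = 0.07 (permutation p = 0.784, adjusted 0.974; rho = 0.10) and 0.41 within the 15 (permutation p = 0.263, adjusted 0.314; rho = 0.40), where it was 0.13 without the 2 farthest samples. With each array centred on its median in place of quantile normalisation, the r of ID1 and ID3 over all 21 samples was 0.49 (adjusted permutation p = 0.158). Over all 21 samples the other members had r with ID1 between -0.32 (ACVRL1) and 0.06 (SMAD6) and adjusted permutation p-values of 0.860 or more. There 0 of the 8 relations passed, and 1 had an unadjusted permutation p below 0.05. Within the 15 samples SMAD5 had r = 0.46 (permutation p = 0.0428, adjusted 0.171, rho = 0.55). BMPR2 had 0.36, SMAD6 0.35, SMAD1 0.34 and ACVRL1 -0.45 there, with adjusted permutation p-values of 0.297 or more. ID4 and SMAD5 had an unadjusted permutation p below 0.05 in this set, and neither passed after adjustment.

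**Figure D3:**
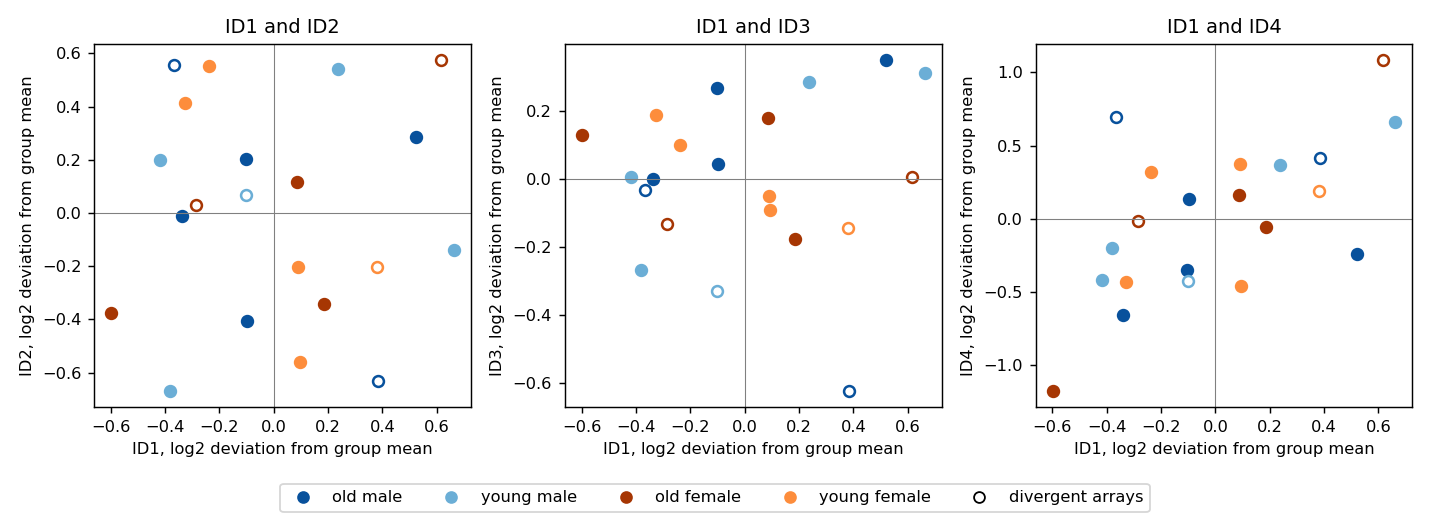
Each sample's log2 deviation from its group mean for ID1 (horizontal axis) against ID2, ID3 and ID4 (vertical axes). Points are the 21 samples coloured by group, open where the arrays diverge; the ID4 panel has r = 0.61, with old female 2 at the top right and old female 3 at the bottom left, while r is 0.008 for ID2 and 0.07 for ID3.

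Relations among the other members were computed as a family of all 36 pairs of the 9 measured genes, added after the values above had been seen. SMAD1 and SMAD5, close homologues with the same role, had r = 0.73 over 21 samples (permutation p = 0.00118, adjusted 0.0425) and rho = 0.84 (permutation p = 1e-05, the smallest that the permutations can give, adjusted 0.00036). Without the 2 samples farthest from the SMAD1 median r was again 0.73. Within the 15 samples that do not diverge r was 0.68 (permutation p = 0.0316, adjusted 0.308) and rho 0.81 (adjusted permutation p = 0.0461). There the relation thus passed by rank and not by r. Both genes were lower on divergent arrays, with means of 7.71 for SMAD1 and 6.64 for SMAD5, against 8.52 and 8.02 in the other samples. The relation uses 1 probe set per gene, and the second SMAD1 probe set, below the filter, had a group-centred r of -0.14 with the first.

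ID2 and ID3 had r = 0.54 (permutation p = 0.0196, adjusted 0.129; rho = 0.51), 0.33 without the 2 farthest samples, and 0.71 within the 15 (permutation p = 0.0114, adjusted 0.308; rho = 0.67). This pair did not pass. ID3 and SMAD6 had r = 0.58 over all samples (permutation p = 0.0127, adjusted 0.114; rho = 0.45) and 0.03 within the 15. SMAD6 and SMAD5 had r = 0.58 (permutation p = 0.0112, adjusted 0.114; rho = 0.57) and -0.05 within the 15, so the relations of SMAD6 with ID3 and with SMAD5 did not hold within the arrays that do not diverge.

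**Figure D4:**
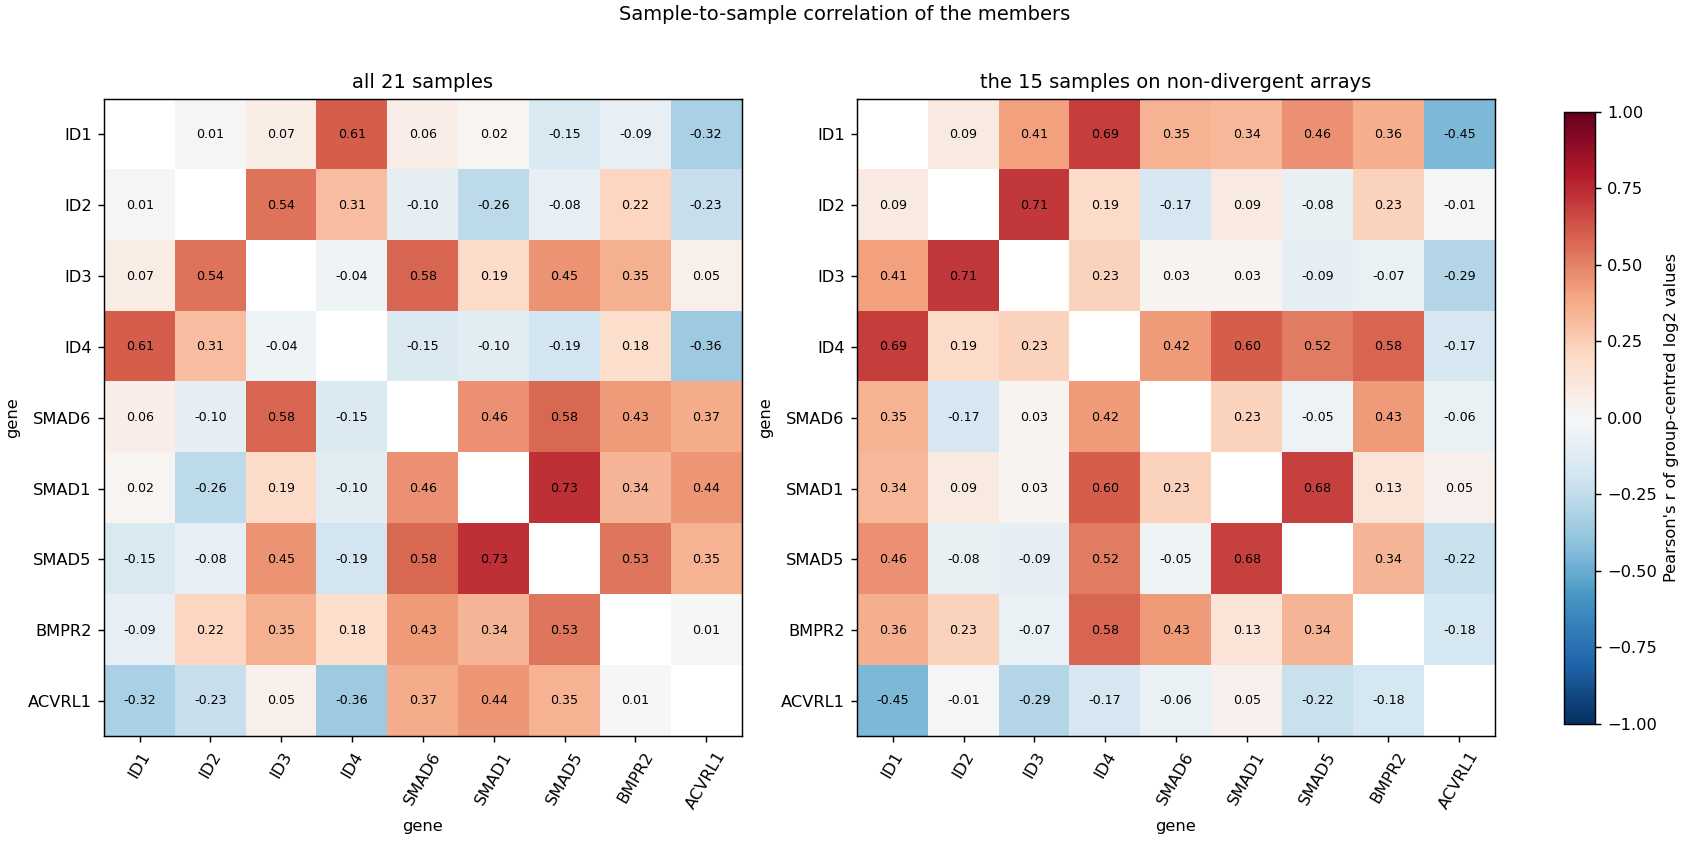
Pearson's r of group-centred log2 values for each pair of the 9 measured genes, over all 21 samples (left) and over the 15 samples on non-divergent arrays (right); both axes list the genes and colour runs from blue at -1 to red at 1. SMAD1 with SMAD5 is 0.73 and 0.68, ID2 with ID3 is 0.54 and 0.71, and SMAD6 with SMAD5 is 0.58 on the left and -0.05 on the right.

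SMAD6, an inhibitory SMAD that BMP signalling itself induces, ran from 8.35 through 9.87 to 10.26 in old males on its brightest probe set. The young males read 8.59, 9.48, 9.61, 10.08 and 9.58. The lowest old male (4) and the lowest young male (1) were both on divergent arrays. The log2 change of 0.12 ± 0.37 (SE) was 0.36 without the divergent samples, -0.10 without young male 1, 0.42 with the endothelial list mean in the model and 0.56 with the adipocyte one. Old females read 9.98, 8.67, 9.34, 9.46 and 8.32, against 10.37, 9.47, 9.37, 8.81 and 9.03 in young females. Their change of -0.26 ± 0.39 (SE, limma adjusted p = 0.9996) turned to 0.17 without the divergent samples. Over all samples the divergent ones read 8.32 to 9.37 and the others 8.81 to 10.37.

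The 4 SMAD6 probe sets disagreed. The dimmest tested one read 7.40, 8.43, 7.23, 6.68 and 7.71 in old females, against 8.08, 7.53, 8.29, 8.13 and 7.96 in young females. All 5 young females lay above the old female median, and old female 2, on a divergent array, lay above every young female. Its change was -0.51 ± 0.30 (SE, limma adjusted p = 0.9996), with 0.17 ± 0.29 in males, and its group-centred r with the brightest probe set was -0.03. The other tested probe set had r = 0.50 with the brightest and changes of -0.32 ± 0.48 in females and 0.42 ± 0.45 in males, and the probe set below the filter had -0.77 ± 0.35 in males.

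SMAD1, which carries the receptor signal to the nucleus, ran from 7.42 through 8.42 to 8.76 in old males on its brighter probe set, and young males read 7.67, 8.65, 7.94, 8.76 and 8.95. Old females read 8.48, 7.04, 8.41, 8.98 and 8.001, against 9.10, 8.08, 7.61, 8.97 and 7.65 in young females. The groups overlapped, and the changes of -0.11 ± 0.36 in males and -0.10 ± 0.37 in females (SE, limma adjusted p = 0.9996 in females) were smaller than their errors. In males the value was 0.12 with the endothelial list mean in the model and 0.23 with the adipocyte one. The second SMAD1 probe set, below the filter, had a group-centred r of -0.14 with the first.

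SMAD5, the partner of SMAD1, had its brighter probe set just above the filter, at a mean of 7.63. It ran from 6.86 through 7.89 to 8.51 in old males, and young males read 6.80, 7.999, 7.93, 8.42 and 8.35. Old females read 8.23, 6.06, 7.90, 8.53 and 6.49, against 7.90, 6.59, 5.76, 8.23 and 7.61 in young females. The divergent samples read 5.76 to 7.85 and the others 6.59 to 8.53, so the low values lay mostly on divergent arrays. The change was -0.003 ± 0.49 (SE) in males, and it ran from -0.28 without young male 1 to 0.48 with the adipocyte list mean in the model. In females it was 0.23 ± 0.51 (SE, limma adjusted p = 0.9996), 0.64 without the divergent samples and -0.14 without young female 3.

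BMPR2, the type II receptor, gave the only unadjusted p below 0.05 among the 13 probe sets in females. Its brighter probe set read 11.44, 10.70, 10.41, 11.06 and 11.34 in old females, against 11.77, 11.31, 10.98, 11.66 and 11.48 in young females. No old female lay above the young female median, and 2 lay below every young female, the lowest being old female 3, whose log2 actin 3′ to 5′ ratio of 1.15 was the highest outside the divergent arrays. It averaged 10.99 ± 0.44 in old females and 11.44 ± 0.31 in young females (SD, n = 5 each), a log2 change of -0.45 ± 0.21 (SE) or 0.73-fold. The unadjusted limma p was 0.0459, and the change did not pass after adjustment (limma adjusted p = 0.9996). It was -0.59 without the divergent samples, -0.30 with the 24 arrays counted separately, -0.29 with the actin ratio in the model and -0.30 without old female 3. With the actin ratio, the replicate block, median-centred arrays or the deposited scale, 0 of the members had an unadjusted p below 0.05. The count was also 0 with 1 sample left out where that was old male 1, 3 or 6 or young female 1, 5 or 6. So it was for young male 2, 5 or 6, and any other sample left out gave 1 or 2. In the same comparison 11 of 12 smooth muscle markers (median change -0.36) and 7 of 8 fibroblast markers (-0.43) had a lower mean in old females. A higher mean was found for 8 of 10 macrophage (0.30), 2 of 3 lymphocyte (0.28), 6 of 11 endothelial (0.02) and 6 of 10 adipocyte markers (0.10). The 1 tested red blood cell marker was also higher (2.17). What part these markers had in the BMPR2 result was not tested.

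The second BMPR2 probe set read 11.09, 9.72, 9.06, 10.96 and 9.54 in old females, against 11.14, 10.996, 10.11, 10.92 and 10.39 in young females. Here 3 old females lay below every young female: old females 2 and 6, both on divergent arrays, and old female 3. Over all samples the divergent ones averaged 9.89 on this probe set and the others 10.76. The change of the second probe set had the same sign, -0.64 ± 0.35 (SE, limma adjusted p = 0.9996). Its group-centred r with the brighter probe set was 0.72. In males the changes were -0.11 ± 0.20 and -0.07 ± 0.34 (SE). The brighter probe set ran from 10.83 through 11.26 to 11.51 in old males, and young males read 10.78, 11.44, 11.63, 11.51 and 11.31.

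ACVRL1, the endothelial type I receptor also called ALK1, had 1 probe set with a mean of 5.91, below the filter, and it was not tested. It ran from 5.002 through 6.76 to 7.73 in old males, and the young males read 4.64, 6.74, 6.04, 4.82 and 5.23. Old females read 5.22, 4.73, 7.41, 7.34 and 4.78, against 6.69, 5.51, 5.47, 5.61 and 4.91 in young females. Old males had 3 samples above every young male, and old females fell into 2 high and 3 low values. The log2 change was 0.98 ± 0.57 in males and 0.26 ± 0.60 in females (SE). At these levels it depends on the pseudocount: the male value was 1.405 with a pseudocount of 1 and 0.57 with 64.

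Over the members as a group, limma called 0 of the 13 tested probe sets in females (background 0% of 11108), with 1 at an unadjusted p below 0.05, as had 316 of all 11108. Of the 13, 6 had a higher and 7 a lower mean in old females, with a median log2 change of -0.06, beside -0.03 over all tested probe sets. In males, the comparison that chose the set and so gives no test, 9 of the 13 had a higher mean in old animals, and the median was 0.19, beside -0.01 over all. Groups without overlap were found for 0 of 13 in females (background 0.342%) and, as a description, for 0 of 13 in males (background 0.657%).

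Between the sexes ID1 was left out of the tests, since the old males that chose it are in 1 of the comparisons and the young males in the other. Of the 12 other tested probe sets limma called 0 in young animals and 0 in old animals (background 0.0270% in each), with 0 at an unadjusted p below 0.05 in either. ID4 averaged 12.37 ± 0.49 in young males and 11.79 ± 0.41 in young females (SD, n = 5 each), a difference of 0.58 ± 0.33 (SE, limma adjusted p = 0.9999), with 3 young males above every young female. The other ID4 probe sets gave 0.30 ± 0.36 and, below the filter, -0.18 ± 0.30, so the sign was not shared by all 3. In old animals 12 of the 13 probe sets, ID1 included, had a higher mean in males, against 52.8% of all probe sets, with a median difference of 0.27 beside 0.02 over all. The exception was the brighter ID2 probe set (-0.08 ± 0.25). This count is a description with no test, since ID1 was chosen from its male values and some genes are counted by several probe sets. All 12 tested smooth muscle markers and 9 of the 11 endothelial markers also had a higher mean in old males than in old females, with median differences of 0.58 and 0.10. So did 9 of 10 adipocyte markers (0.67), while 8 of 10 macrophage markers (-0.78), 6 of 8 fibroblast markers (-0.10), all 3 tested lymphocyte markers (-0.25) and the 1 tested red blood cell marker (-2.05) had a lower one. The part of these markers in the result was not tested. In young animals 6 of 13 had a higher mean in males.

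The rest of the pathway was read from 6 lists of other BMP genes, 67 in all, of which 57 had a probe set and 38 were tested. In females limma called 0 of the 38 (background 0%), with 2 at an unadjusted p below 0.05, as had 200 of all 6952 genes tested. In old females 16 had a higher and 22 a lower mean, with a median change of -0.08 beside -0.02 over all genes. In old males 19 were higher and 19 lower, with a median of -0.004 beside -0.01.

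Among the ligands 4 of 14 genes were tested, and all 4 had a lower mean in old females, where 46.5% of all genes tested had a higher one. BMP3, too dim to be tested and named after its values were seen, read 7.04 to 7.97 in old females and 5.45 to 6.82 in young females. Of the 57 listed genes with a probe set, it was the only one whose female groups did not overlap. Over all tested probe sets 0.342% had no overlap in females, and no such share was computed for dim ones. Of the 9 ligands with a dim probe set, 6 had a higher mean in old females (BMP3, BMP5, BMP8A, BMP10, BMP15 and GDF5) and 3 a lower one (BMP4, BMP8B and GDF2). BMP6, an endothelial ligand known from iron control in the liver, had a change of -0.40 ± 0.22 in females and 0.03 ± 0.21 in males (SE). INHBA, a subunit of activin, had -0.32 ± 0.59 in females and -0.51 ± 0.56 in males. BMP2 had -0.07 ± 0.33 in females, where its second probe set had the opposite sign, and BMP7 had -0.11 ± 0.44.

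Of the 6 tested receptors and co-receptors, ENG had opposite signs in the sexes. ENG encodes endoglin, the endothelial co-receptor that works with ACVRL1. It averaged 10.53 ± 0.41 in old males (SD, n = 6) and 9.86 ± 0.34 in young males (SD, n = 5), a change of 0.68 ± 0.24 (SE). In females it averaged 10.21 ± 0.51 in old and 10.68 ± 0.27 in young samples (SD, n = 5 each), a change of -0.47 ± 0.25 (SE, limma adjusted p = 0.9996). The groups overlapped in both sexes, both of its tested probe sets had these signs, and the difference between the sexes was not tested. ACVR2A and ACVR2B, type II receptors of activins and BMPs, had 0.20 ± 0.23 and 0.26 ± 0.25 in females, and NEO1 had -0.22 ± 0.39 in males.

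Among the other SMADs all 5 were tested, 4 with a lower mean in old females. SMAD9, which BMP receptors also activate, had -0.54 ± 0.76 in females and -0.23 ± 0.73 in males. SMAD3, which carries TGF beta signals, had -0.45 ± 0.20 in males and 0.08 ± 0.21 in females, and its tested probe sets disagreed in sign. SMAD2 had -0.10 ± 0.17 in females, and SMAD7, the other inhibitory SMAD, had 0.28 ± 0.50 in males.

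Of the 21 inhibitors 13 were tested, 5 with a higher and 8 with a lower mean in old animals of each sex. BAMBI, a decoy receptor without a kinase, averaged 10.04 ± 0.64 in old males and 10.79 ± 0.54 in young males, a change of -0.75 ± 0.32 (SE). It averaged 9.64 ± 0.45 in old females and 10.37 ± 0.54 in young females, a change of -0.73 ± 0.33 (SE, limma adjusted p = 0.9996). CHRD, the ligand trap chordin, had -0.89 ± 0.38 in females, where old samples ran from 6.06 to 9.19 and young ones from 8.52 to 9.28, and -0.16 ± 0.36 in males. FSTL3, which binds activin, had -1.09 ± 0.55 in females. MGP, a matrix protein that binds BMP and guards arteries against calcification in mice, had 0.72 ± 0.39 in males and 0.01 ± 0.40 in females, and FSTL1 had -0.54 ± 0.35 in males.

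Of 14 further target genes 7 were tested, and 5 had a higher mean in old animals in each sex. JUNB, an early-response transcription factor, had 0.90 ± 0.37 in males and 0.63 ± 0.39 in females. HES1 had 0.44 ± 0.30 in males and 0.28 ± 0.32 in females, HEY2 had -0.63 ± 0.51 in males, and UNC5B had 0.22 ± 0.28 in females. The E proteins TCF3 (0.11 ± 0.29), TCF4 (0.17 ± 0.17) and TCF12 (-0.09 ± 0.12), which ID proteins bind, had small changes in females, and the probe sets of TCF3 and TCF4 disagreed in sign.

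**Figure D5:**
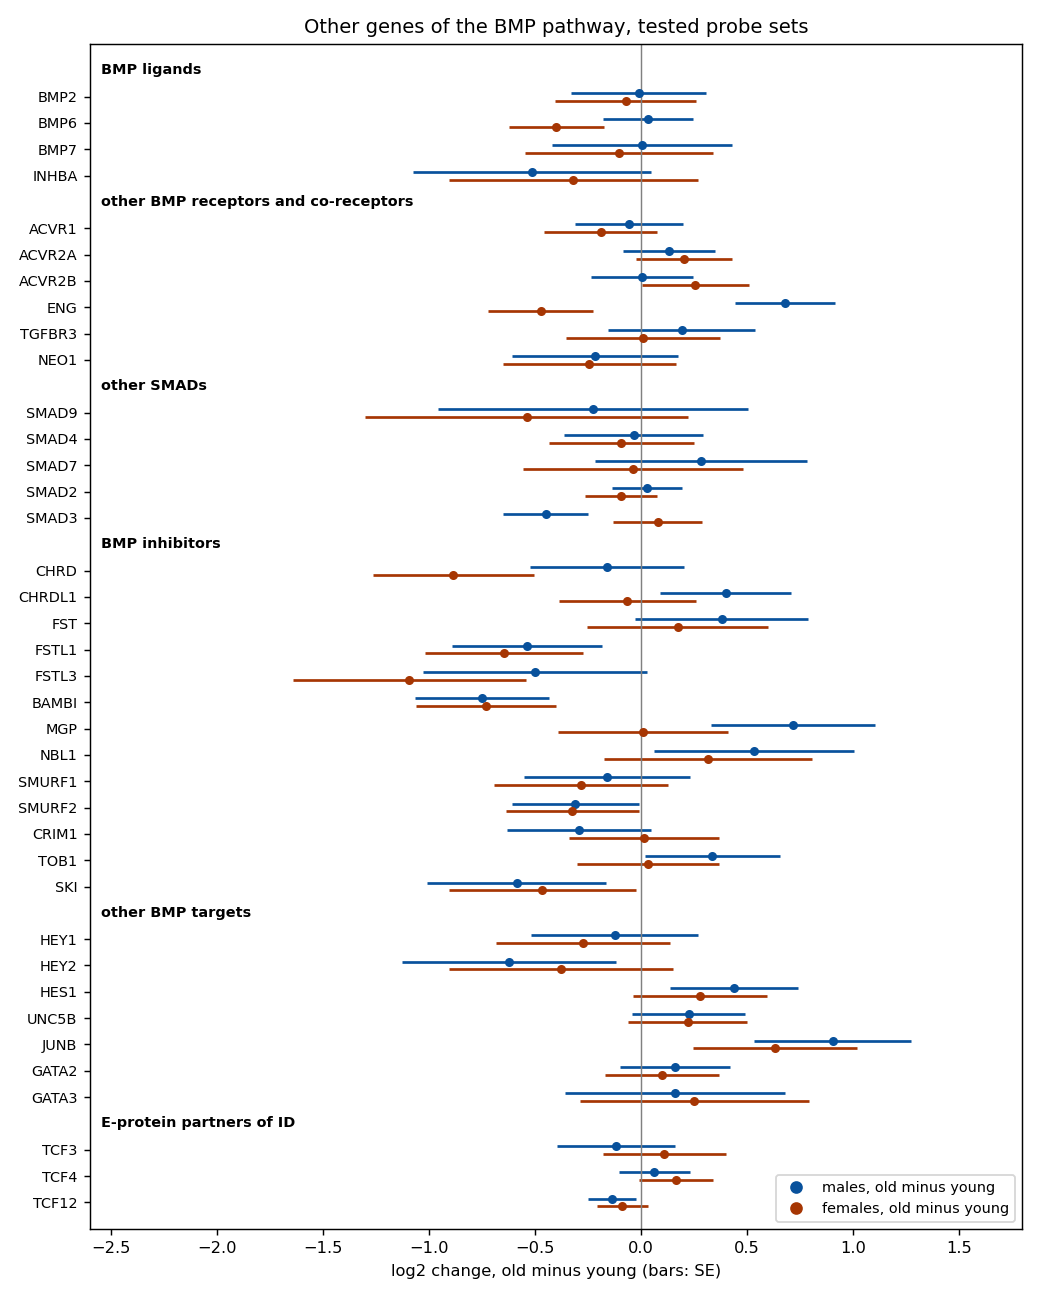
Log2 change, old minus young, of the 38 tested genes of the other BMP lists in males (blue) and females (brown), with bars for the SE from limma. ENG lies on opposite sides of 0 (0.68 in males, -0.47 in females), and BAMBI on the same side (-0.75 and -0.73).

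Likeness to ID1 over all tested genes is described by Pearson's r of group-centred values over the 21 samples, with no test. The highest of 6951 genes was TBCA (r = 0.66), then RAPGEF5 (0.65), ANKRD28 (0.63), HELZ (0.62), REM1 (0.62), ID4 (0.61), RUNX1T1 (0.60), ADAM23 (0.59), CCS (0.59) and CEP164 (0.58). ID4 thus ranked 6 among all genes, whereas ID3 ranked 2612 and ID2 ranked 3403. Within the 15 samples that do not diverge, these 10 genes had r between 0.36 (CCS) and 0.75 (TBCA). RAPGEF5 had the largest age change of the 10, 0.87 ± 0.34 in males and 0.67 ± 0.35 in females (SE).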

How the data were processed

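The authors deposited 1 linear intensity for each of 22277 probe sets on 24 arrays. Their summarisation and scaling method: not given in the sources used here. A mean that left out 2% of the probe sets at each end was 500.1 to 500.2 on every array, while the array medians ran from 144.3 to 264.1. After 62 control probe sets were left out, log2(intensity + 16) was quantile normalised and near-identical arrays of a group (SD of their log2 difference below 0.4, correlation of deviations above 0.6) were averaged. The number of arrays limits the precision. Probe sets with a mean at or above the median, 11108 of 22215, were fitted with limma 3.58.1 in R 4.3.3 (a mean per group, intensity trend), with Benjamini-Hochberg adjustment and a threshold of 0.05. The code was tested on simulated data. Correlations used 100000 permutations of the values of 1 gene within groups, so that 1e-05 was the smallest p possible, and 8 in place of 9 planned relations of ID1, since BMPR1A has no probe set. Of the probe sets, 19064 had 1 symbol, 1043 several and 2108 were not named here.

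The 36 pairs of members were added after the first correlations had been seen. The members, gene lists and limits were chosen with earlier results of these data known. Named genes are the members, up to 3 genes of each pathway list with the smallest p in each sex, and the 10 genes most like ID1. A gene is given by its brightest probe set unless stated. The alternatives were no filter, other scalings and pseudocounts (1 and 64), 24 separate arrays, no divergent arrays, covariates, a replicate block and each sample left out.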

Additional observations from a re-analysis of the deposited data

How the results depend on the processing

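Limma called 0 member probe sets in females, between the sexes in young animals and between the sexes in old animals, and 0 pathway genes in females, under all 32 alternatives. At an unadjusted p below 0.05 the members numbered 0 to 2 in females, 0 or 1 between the sexes in young animals and 0 to 2 in old animals, and the pathway genes 0 to 5. The male ID1 change was 0.80 to 1.07 over the 32. The correlation of ID1 with ID4 passed with 24 arrays counted separately (r = 0.616, adjusted permutation p = 0.0363) and with the replicate block (r = 0.643, adjusted permutation p = 0.0348). With 24 arrays, the near-identical arrays that were averaged elsewhere count as separate samples. Leaving out single samples gave 0.50 to 0.75, and the correlation passed without old male 2 (0.75, adjusted permutation p = 0.00944) and without old male 3 (0.69, adjusted permutation p = 0.0293). In 27 of the 31 alternatives run for this correlation it did not pass, as in the main fit. The cause of these shifts between settings was not tested. Whether equal replicate numbers pair samples is not stated in the labels and was not tested. Of 30 same-numbered pairs, 14 had a correlation of deviations above 0.1. The median was 0.065 for same-numbered pairs and -0.003 for the others, and 8 of 21 samples were closest to their own number. The block changed no other call in these results. SMAD5 gave no female value with 24 arrays, where it fell below the filter.

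Values near 0 turned sign. Male changes kept their sign in 21 of 32 alternatives for SMAD5, 28 for SMAD1, 29 for SMAD6, 30 for BMPR2 and 31 for ID4. The correlation of ID1 with ID2 was -0.0319 on the deposited scale, -0.0306 with 24 arrays and -0.0332 with the block, and -0.17 to 0.12 over single samples left out. Single samples left out gave -0.092 to 0.32 with ID3, -0.059 to 0.23 with SMAD6, -0.083 to 0.29 with SMAD1, -0.26 to 0.039 with SMAD5 and -0.35 to 0.017 with BMPR2. SMAD1 was at -0.0201 with the actin covariate and -0.0300 with the block. With median-centred arrays SMAD5 was at 0.288 and BMPR2 at 0.377, and without the divergent samples at 0.458 and 0.362. Female changes turned with the actin covariate for ID3 (0.0198), SMAD6 (0.05001) and SMAD1 (0.246), without the divergent samples for SMAD6 (0.174) and SMAD1 (0.175), and with 24 arrays for SMAD1 (0.0622). Single samples left out gave -0.30 to 0.19 for SMAD1 and -0.14 to 0.57 for SMAD5 in females. With 5 or 6 samples a group, intervals are wide, and dim probe sets such as ACVRL1 are limited by signal over background.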
